A study of Mus musculus with 28 samples.

Results

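The genes described here are 10 markers of peritubular myoid cells and of stroma, chosen by symbol: the contractile and cytoskeletal genes Acta2, Actg2, Myh11, Tagln, Cnn1 and Des, and the stroma genes Dcn, Pdgfra, Col1a1 and Col1a2. All 10 were found among the 43280 gene rows of each deposited count table. They were followed across 28 libraries of polyadenylated RNA from mice that had been treated for 7 days with WIN 18,446, which blocks the synthesis of retinoic acid, and then an injection of retinoic acid, which synchronises spermatogenesis. The first set is 18 whole testes of NANOS2 KO mice on a CD1 background, which lack germ cells, with 2 libraries for each day from 42 to 50 days after the injection. The second set is 10 libraries of Sertoli cells sorted by a red fluorescent protein that Amh-Cre switches on, from RFP heterozygous, Amh-Cre-positive mice taken 42 to 50 days after the injection. They form 5 groups of 2 by the most enriched stages of the seminiferous cycle, namely group B of stages I-III, group C of stages IV-VI, group D of stages VII-VIII, group E of stages IX-X and group A of stages XI-XII. The sorted mice derive from C57BL/6 x 129s4/SvJae by their strain label, except group A replicate 1, whose label gives C57BL/6 x Amh-Cre. The labels call the NANOS2 KO libraries Sertoli cells although the tissue was whole testis. Apart from the differing strain labels within group A, the labels do not say whether replicates come from different animals. A p-value therefore covers only the spread among these libraries, which may be technical.

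Peritubular myoid cells are flattened smooth muscle-like cells that surround each seminiferous tubule. They contract to move sperm along the tubule and, together with Sertoli cells, lay down its basement membrane. Fibroblast-like cells of the interstitium produce the collagens and small proteoglycans around the tubules. Sertoli cells signal to both through PDGF ligands and desert hedgehog. None of the 10 genes belongs to a single cell type: the contractile genes also mark vascular smooth muscle, and Pdgfra also marks Leydig cells and their precursors.

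Total counts per library ran from 1336742 to 4370138 in NANOS2 KO testes and from 1901743 to 5279746 in sorted cells, so that 3 counts equal 0.686 to 2.24 CPM (counts scaled to the library total) and 0.568 to 1.58 CPM. Nanos2 had 0 counts in the NANOS2 KO libraries and 2 in the sorted libraries, too few to check the genotype. The summed level of 10 germ cell markers was 8.22 CPM ± 2.91 in NANOS2 KO testes (SD, n = 18) and 8111 CPM ± 3679 in sorted cells (SD, n = 10). The 12 Sertoli markers, all detected in both sets, summed to 16381 CPM ± 708 in NANOS2 KO testes and 10181 CPM ± 2048 in sorted cells. Clu alone averaged 10743 CPM and 4977 CPM of these sums. Between the sets, 5 of the 12 were called higher in NANOS2 KO testes, 4 lower and 3 not called, with a median log2 change of 0.01. Among NANOS2 KO libraries, day 49 replicate 1 had the lowest share of mitochondrially encoded counts, 0.715%, against 2.33 to 3.24% in the other 17 libraries. It also had the fewest genes with a read, 16779.

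Whole germ cell-deficient testis was compared with sorted Sertoli cells, and Actg2 ran against the other genes. Acta2, smooth muscle alpha-actin and the usual marker of myoid cells, lay at 235 to 378 CPM (median 325) in NANOS2 KO testes, against 24.2 to 43.1 CPM (median 31.1) in sorted cells. Actg2, the enteric smooth muscle gamma-actin, lay at 5.04 to 13.6 CPM (median 7.96) in NANOS2 KO testes, against 41.3 to 294 CPM (median 142) in sorted cells. The ranges of the sets do not overlap for either actin, and they run in opposite directions. Myh11, the smooth muscle myosin heavy chain, lay at 236 to 390 CPM (median 294) in NANOS2 KO testes and 8.33 to 38.4 CPM (median 11.6) in sorted cells.

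Every NANOS2 KO library was above every sorted library for the remaining contractile genes too. Tagln, the actin-binding protein transgelin, averaged 32.2 CPM ± 5.05 in NANOS2 KO testes and 4.74 CPM ± 2.05 in sorted cells. Cnn1, calponin, which binds actin and restrains myosin, averaged 15.4 CPM ± 3.75 in NANOS2 KO testes and 1.88 CPM ± 0.894 in sorted cells. Des, the muscle intermediate filament desmin, averaged 26.8 CPM ± 4.76 in NANOS2 KO testes and 2.80 CPM ± 1.10 in sorted cells (SD, n = 18 and n = 10 for all 3). These 3 genes had few reads in sorted cells, with 181 counts for Tagln, 71 for Cnn1 and 101 for Des over the 10 libraries.

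Among the stroma genes the ratio of the means, NANOS2 KO testes over sorted cells, ran from 13.1 for Col1a1 to 431 for Dcn. Dcn, the small proteoglycan decorin that decorates collagen fibrils, lay at 216 to 665 CPM (median 449) in NANOS2 KO testes, against 0.320 to 1.98 CPM (median 0.988) in sorted cells. Its 10 sorted libraries held 43 counts in all and its 18 NANOS2 KO libraries 20785. Pdgfra, the receptor for PDGF-A, lay at 234 to 382 CPM (median 278) in NANOS2 KO testes and 3.88 to 18.5 CPM (median 12.6) in sorted cells. Both chains of type I collagen followed the same direction: Col1a1 averaged 73.5 CPM ± 25.2 in NANOS2 KO testes and 5.63 CPM ± 3.51 in sorted cells, and Col1a2 averaged 469 CPM ± 271 in NANOS2 KO testes and 11.9 CPM ± 5.64 in sorted cells (SD, n = 18 and n = 10). Sorted cells were not free of these transcripts, since Pdgfra had 404 counts and Col1a2 429 counts over the 10 libraries.

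**Figure D1:**
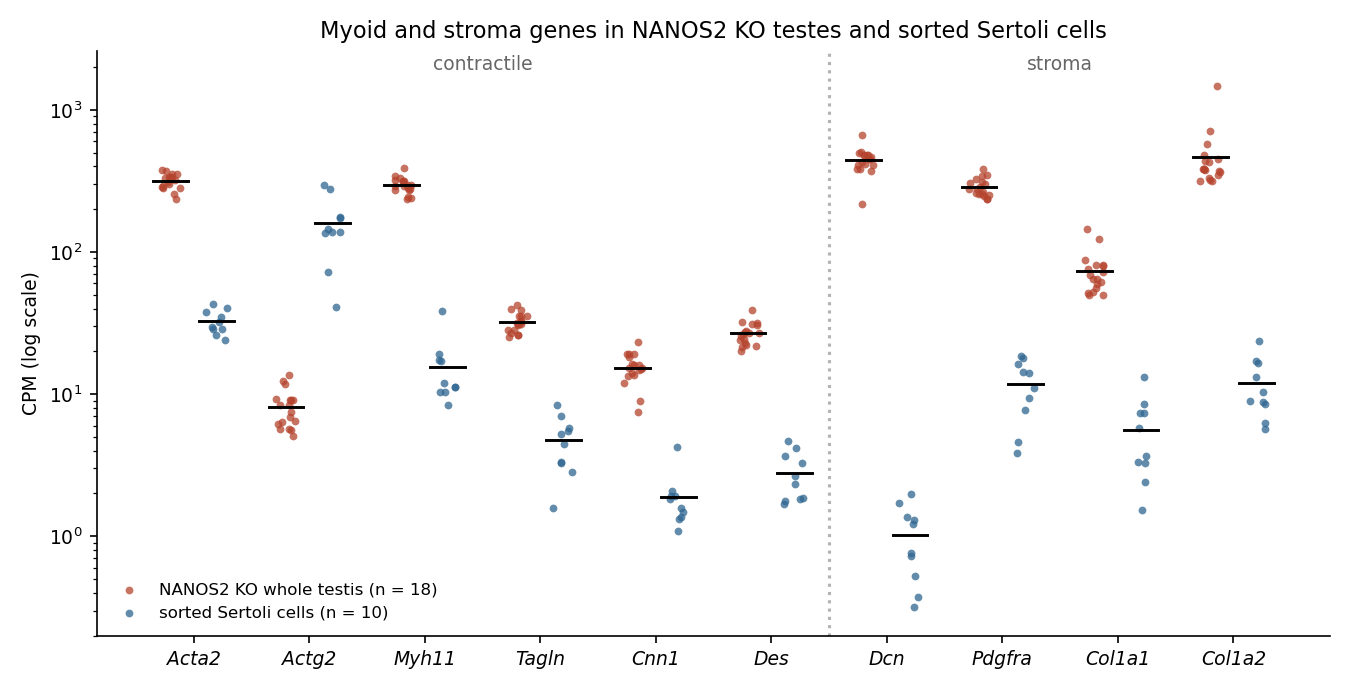
CPM (log scale) of the 10 genes in each library, with NANOS2 KO whole testis (red, n = 18) to the left of sorted Sertoli cells (blue, n = 10) and a bar at each mean. The red points lie above the blue points for every gene except Actg2, where sorted cells averaged 159 CPM and NANOS2 KO testes 8.15 CPM.

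In the joint fit (edgeR quasi-likelihood F test, Benjamini-Hochberg adjusted p), 9 of the 10 genes were higher in NANOS2 KO testes and Actg2 was lower. This count reads against a background of 85.1% of 15777 genes called in either direction, 38% higher and 47% lower, so a call by itself says little. Ranges that do not overlap were also frequent, with 23.6% of genes higher and 18.3% lower in every NANOS2 KO library. The sizes differed from gene to gene. Dcn had a log2 fold change of 8.42 (SE 0.17, adjusted p = 7.67e-23), and 27 genes of the 15777, or 0.171%, had one as high. Col1a2 followed at 4.91 (SE 0.19), Pdgfra at 4.36 (SE 0.09), Myh11 at 3.95 (SE 0.15) and Col1a1 at 3.45 (SE 0.18).

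The other contractile genes rose less, with Des at 2.91 (SE 0.16), Acta2 at 2.90 (SE 0.09), Cnn1 at 2.61 (SE 0.21) and Tagln at 2.41 (SE 0.15) on the log2 scale. Actg2 fell by 4.50 (SE 0.14, adjusted p = 1.65e-19), and 1745 genes (11.1%) were lower by as much. The median over all genes was -0.17, and it was -0.51 when libraries were scaled by the summed Sertoli markers, in which Clu weighs most. With that scaling Dcn stood at 8.11, Acta2 at 2.56, Tagln at 2.08 and Actg2 at -4.85, and all 10 genes kept their direction and their call. Genotype, strain, sorting and the mixture of cells in the tissue change together between the sets and cannot be told apart. In bulk RNA, fewer cells of a type and less RNA per cell cannot be told apart either.

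Per kilobase of annotated exon, the order of the genes differed between the sets. The length used joins all annotated exons of a gene over its transcripts. It can exceed the length of the transcript expressed, so the order holds for this divisor only. By this measure Acta2 led in NANOS2 KO testes with 144 CPM per kb, followed by Dcn at 75.8, Myh11 at 38.9, Col1a2 at 37.7 and Pdgfra at 28.6 CPM per kb. Tagln (16.2), Col1a1 (11.2), Des (7.14), Cnn1 (5.61) and Actg2 (5.24 CPM per kb) came after them, and the only neighbours in that order whose ranges over libraries did not overlap were Pdgfra and Tagln. In sorted cells Actg2 led with 102 CPM per kb, ahead of Acta2 at 14.8 CPM per kb, with no overlap, and Acta2 was ahead of Tagln at 2.38 CPM per kb, again with no overlap. From Tagln down to Cnn1 at 0.689 CPM per kb, the ranges of neighbours overlapped. Dcn came last in sorted cells at 0.176 CPM per kb, below the range of Cnn1.

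The actins are alike in sequence, so the assignment of reads between them was checked in the GRCm38 transcripts (GENCODE M21). Of the 1592 different stretches of 50 bases in Actg2 transcripts, 0 occur in a transcript of another actin gene. Of the 2146 in Acta2 transcripts, 7 (0.326%) occur in Actg1 and 0 in Actg2. Acta2 lies on chromosome 19 from 34241090 to 34255590 and Actg2 on chromosome 6 from 83512905 to 83536265, both on the minus strand. The other 8 genes lie on chromosomes 16 (Myh11, 14194535 to 14291372), 9 (Tagln, 45929619 to 45936058, and Cnn1, 22099216 to 22109630), 1 (Des, 75360329 to 75368579), 10 (Dcn, 97479609 to 97518143), 5 (Pdgfra, 75152292 to 75198215), 11 (Col1a1, 94936224 to 94953042) and 6 (Col1a2, 4504814 to 4541544). All 10 are annotated as protein-coding, and the values are counts over whole genes. How reads that match several genes were counted is not given in the sources used here.

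Many smooth muscle genes are driven by serum response factor, which binds the CArG box: CC, then 6 bases of A or T, then GG. The sites closest to it are shown for the genes that hold one. RefSeq promoters (GRCm38.p6) were at hand for 5 of the 10 genes, Acta2, Cnn1, Des, Pdgfra and Col1a2. An exact CArG box occurs in the 250 bases before the start in 0 of these 5, and in 1.47% of 32851 promoters. With at most 1 G or C among the 6 middle bases, 2 of the 5 hold a site, as do 8.59% of all promoters; the motif reads alike on both strands. In the sequences below, capitals mark the site.
Acta2, chr19:34255438-34255467, minus strand, site beginning 84 bases before the start: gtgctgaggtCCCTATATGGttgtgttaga
Acta2, chr19:34255388-34255417, minus strand, site beginning 34 bases before the start: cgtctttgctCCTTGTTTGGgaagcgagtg
Col1a2, chr6:4505380-4505409, plus strand, site beginning 228 bases before the start: taaagtgcttCCAAACTTGGcaagggcgag
All 3 sites lie within the longer gene bounds of GENCODE M21. A match describes these letters only and shows no binding.

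Other genes of the same programmes, taken from lists, were mostly higher in NANOS2 KO testes as well. The background for this and the following lists is 38% of all genes called higher and 47% lower. Of 22 further smooth muscle contractile genes, 21 were tested, 18 rose, 2 fell and 1 was not called, with a median log2 change of 2.20. Cald1, caldesmon, averaged 127 CPM ± 13.9 in NANOS2 KO testes and 4.07 CPM ± 2.88 in sorted cells (log2 4.70, SE 0.16), and the calponin Cnn2 rose by 3.92 (SE 0.14). Myl9, a regulatory myosin light chain, averaged 415 CPM ± 57.0 in NANOS2 KO testes and 568 CPM ± 95.9 in sorted cells (log2 -0.83, SE 0.08), and the small heat shock protein gene Hspb6 had a log2 change of -0.78 (SE 0.19). Both fell, though by less than Actg2.

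Of 23 further stroma and matrix genes, 19 were tested, 17 rose and 2 fell, with a median log2 change of 3.98. Serping1, a complement inhibitor, averaged 326 CPM ± 29.4 in NANOS2 KO testes and 1.97 CPM ± 1.08 in sorted cells (log2 6.97, SE 0.17), and the log2 change was 8.04 without group C replicate 2. Fbln5, an elastic fibre protein, rose by 4.41 (SE 0.12). Fbln1, a fibulin of basement membranes, averaged 7.54 CPM ± 1.88 in NANOS2 KO testes and 98.0 CPM ± 32.1 in sorted cells (log2 -4.02, SE 0.12), and fibronectin, Fn1, fell by 1.18 (SE 0.16). In this list Fbln1 is the gene closest to Actg2 in the size of its fall.

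The signals that act on myoid and interstitial cells were tested as 11 PDGF and hedgehog genes, of which 9 rose and 2 fell, with a median log2 change of 1.97. Pdgfrb, the other PDGF receptor, rose by 3.33 (SE 0.17) and Gli1, a target of hedgehog signalling, by 4.68 (SE 0.25) on the log2 scale. Gli1 had 0 to 1.81 CPM in sorted cells, and its log2 change was 5.63 without group B replicate 2. The ligands were divided: Pdgfa and Dhh, which Sertoli cells make, fell by 0.99 (SE 0.21) and 0.41 (SE 0.08), while Pdgfb rose by 1.82 (SE 0.20), Pdgfc by 1.37 (SE 0.10) and Pdgfd by 3.62 (SE 0.27). Before scaling, Dhh had nearly the same level in both sets, 147 CPM ± 22.2 in NANOS2 KO testes and 149 CPM ± 20.7 in sorted cells.

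Pericyte, endothelial and Leydig markers were also higher in NANOS2 KO testes, while macrophage and blood markers were divided. The 6 pericyte and vascular smooth muscle markers, all detected in both sets, summed to 85.2 to 160 CPM in NANOS2 KO testes and 11.6 to 37.2 CPM in sorted cells, and all 6 rose. The 7 endothelial markers summed to 113 to 211 CPM in NANOS2 KO testes and 11.3 to 43.6 CPM in sorted cells, and all 6 tested rose. The 7 Leydig markers summed to 2016 to 5863 CPM in NANOS2 KO testes and 14 to 50.2 CPM in sorted cells, where Insl3 and Lhcgr were at 0 counts, and all 7 rose. Their part in the rise of the 9 genes was not tested. The 10 markers of skeletal and heart muscle summed to 13.3 to 102 CPM in NANOS2 KO testes and 20.5 to 50.5 CPM in sorted cells, which overlap. The 5 macrophage markers found summed to 285 to 430 CPM in NANOS2 KO testes and 147 to 400 CPM in sorted cells, which overlap too; 3 rose, Aif1 had a log2 change of -4.45 (SE 0.14) and Mrc1 of 0.09 (SE 0.11), which was not called. The 5 blood markers summed to 61.1 to 123 CPM in NANOS2 KO testes and 38.2 to 945 CPM in sorted cells, where Alas2 made up most of the sum. Alas2 fell by 4.28 (SE 0.19) and the other 4, all globin genes, rose. All 10 germ cell markers fell, as Actg2 did, with a median log2 change of -12.64. The part of germ cell transcripts in the values of Actg2 was not tested.

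**Figure D2:**
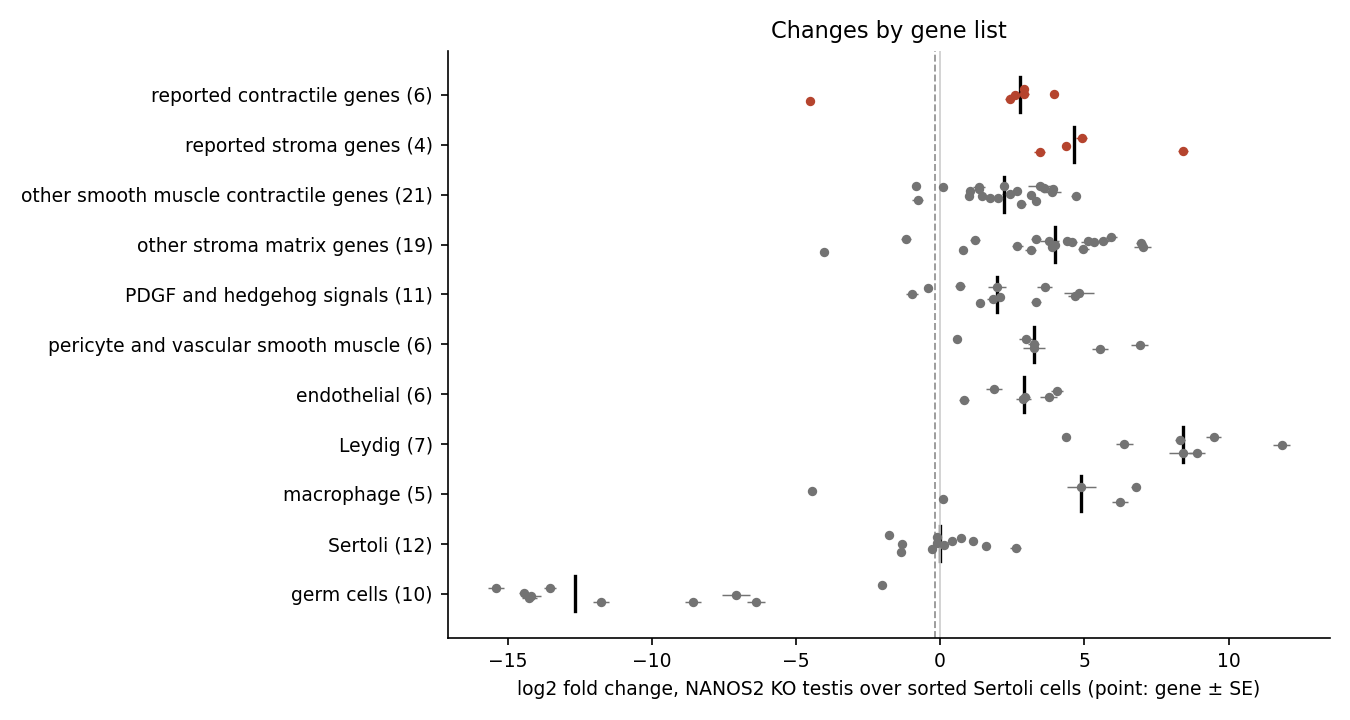
Log2 fold change of NANOS2 KO testis over sorted Sertoli cells for each tested gene (point, with its SE) by list, the number tested in parentheses, a black bar at each list's median and a dashed line at the median of all genes (-0.17). Among the reported contractile genes 5 of 6 lie to the right and Actg2 lies at -4.50, while all 4 reported stroma genes lie to the right.

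Along the seminiferous cycle, Actg2 and Pdgfra were the 2 genes of the 8 tested that differed among the 5 groups of sorted cells (edgeR quasi-likelihood F test, adjusted p = 0.0143 and 0.0218). The background is 8.07% of 14331 genes. Cnn1 and Dcn were too low in sorted cells to be tested. Actg2 had 176 and 276 CPM in group B, 139 and 135 CPM in C, 41.3 and 72.1 CPM in D, 138 and 146 CPM in E and 172 and 294 CPM in A. Both libraries of D lie below the other 8, and the highest libraries belong to A and B.

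Against the mean of the other groups, Actg2 in group D, stages VII-VIII, had a log2 fold change of -1.69 (SE 0.31, adjusted p = 0.00441), where 4.28% of genes were called lower. This call rests on group D replicate 1: without it the log2 change was -1.35 with adjusted p = 0.101, and the F test over groups gave adjusted p = 0.106. In group A the log2 change of Actg2 was 0.95 (SE 0.25, adjusted p = 0.0826), not called in this fit, which called 0.789% of genes higher. The same contrast was called by DESeq2 (0.97, adjusted p = 0.033), with no filter on low counts (1.02, adjusted p = 0.00105), without group A replicate 1 (1.3, adjusted p = 0.0461), and with the replicate number as a block (0.92, adjusted p = 0.031). Without group A replicate 2 it was 0.49, so the higher level in A rests largely on that library. The replicates of group A differ in strain label, and the part of strain in their values was not tested.

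Pdgfra followed another course. It had 11 and 14.4 CPM in group B, 18.5 and 18 CPM in C, 14.1 and 16.2 CPM in D, 7.77 and 9.44 CPM in E and 4.58 and 3.88 CPM in A. Group A, stages XI-XII, lies below all other groups, and its libraries held 24 and 20 counts of the gene. The log2 change of A against the rest was -1.58 (SE 0.32, adjusted p = 0.0269), where 0.886% of genes were called lower.

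That call did not hold when either library of group A, D or E or group B replicate 2 was left out, with log2 changes from -1.69 to -1.48 and adjusted p up to 0.111. The F test for Pdgfra did not pass either without group A replicate 2 or any library of D or E, with adjusted p up to 0.0724. In group C its log2 change was 0.97 (SE 0.27, adjusted p = 0.0813). None of the 8 genes was called in C, where 1.95% of all genes were higher.

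The remaining genes gave no call among the stage groups by edgeR with the filter. Col1a1 had 3.68 and 7.37 CPM in group B, 13.1 and 8.53 CPM in C, 3.35 and 7.32 CPM in D, 1.52 and 2.41 CPM in E and 5.73 and 3.3 CPM in A. Group C is the highest and E the lowest, without overlap with the other groups. Its log2 change was 1.37 in C (SE 0.40, adjusted p = 0.0987) and -1.69 in E (SE 0.49, adjusted p = 0.16, with 0.272% of all genes called lower there), and both passed with no filter on low counts, at adjusted p = 0.0216 and 0.0303. Col1a2 had 6.31 and 13.1 CPM in group B, 23.6 and 16.5 CPM in C, 8.93 and 17.0 CPM in D, 5.68 and 8.56 CPM in E and 8.79 and 10.3 CPM in A. Its log2 change in C was 1.02 (SE 0.33, adjusted p = 0.145).

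For Acta2 and Myh11, the 2 libraries of group C stood farther apart than any of the group means. Acta2 had 37.9 and 40.4 CPM in group B, 43.1 and 28.9 CPM in C, 24.2 and 32.4 CPM in D, 26.1 and 28.5 CPM in E and 34.8 and 29.7 CPM in A. Myh11 had 17.4 and 17.0 CPM in group B, 38.4 and 11.3 CPM in C, 10.4 and 12.0 CPM in D, 8.33 and 11.2 CPM in E and 19.1 and 10.3 CPM in A. One library, group C replicate 1, sets the high mean of C: with it the log2 change of Myh11 in C was 0.90 (SE 0.37, adjusted p = 0.263), and without it -0.16. That library was also the highest of the 10 for Acta2, Tagln, Des, Pdgfra, Col1a1 and Col1a2.

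Tagln had 1.58 and 4.49 CPM in group B, 8.34 and 5.48 CPM in C, 3.35 and 7.06 CPM in D, 2.84 and 3.29 CPM in E and 5.73 and 5.24 CPM in A. Des had 3.68 and 4.17 CPM in group B, 4.71 and 1.83 CPM in C, 1.86 and 2.35 CPM in D, 1.70 and 1.76 CPM in E and 2.67 and 3.3 CPM in A. For both, group E had the narrowest range and several groups overlap. The F test over groups gave adjusted p = 0.701 for Acta2, 0.373 for Myh11, 0.531 for Tagln, 0.643 for Des, 0.106 for Col1a1 and 0.229 for Col1a2, and with no filter on low counts Col1a1 passed it (adjusted p = 0.0112).

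**Figure D3:**
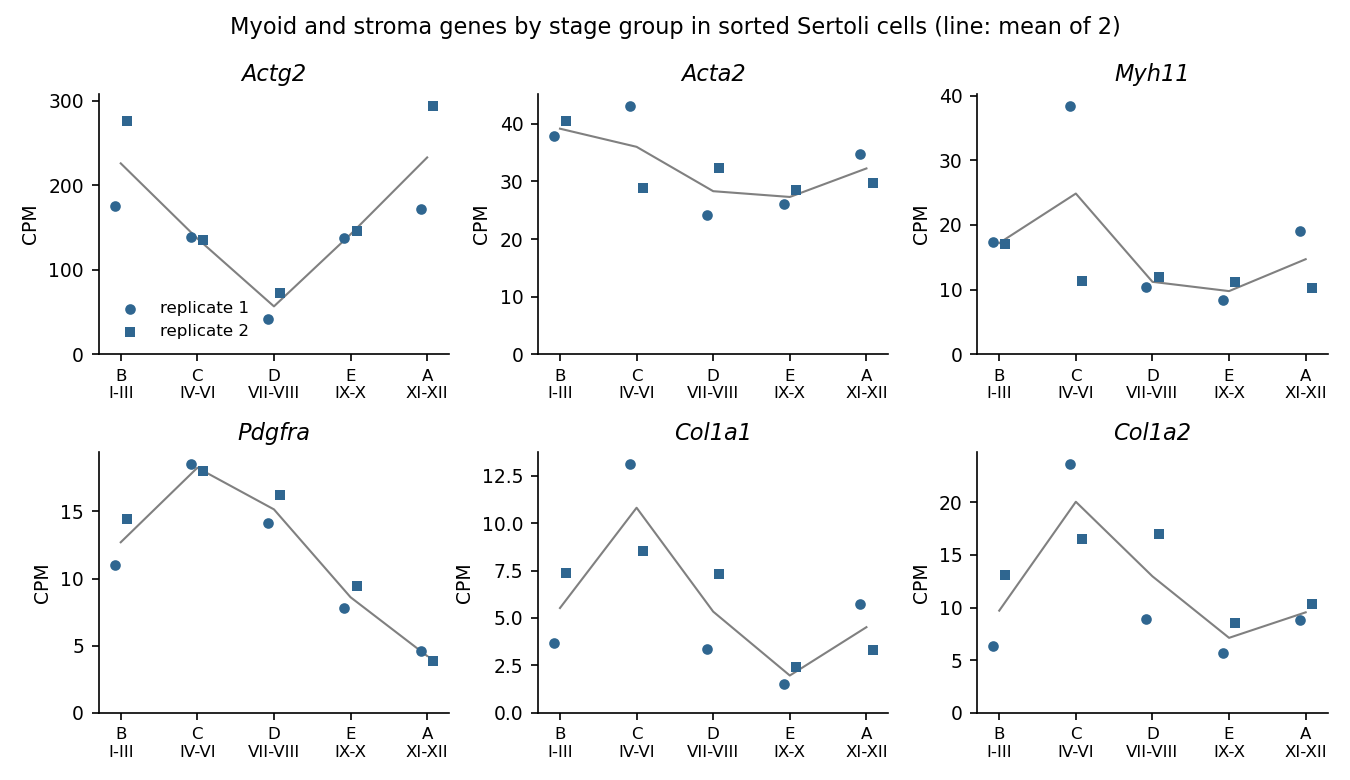
CPM of 6 of the genes in sorted Sertoli cells, by stage group in the order of the cycle, with circles for replicate 1, squares for replicate 2 and a line through the means of 2. Actg2 is lowest in group D (41.3 and 72.1 CPM), Pdgfra is lowest in group A (4.58 and 3.88 CPM), and Myh11 in group C is split between 38.4 and 11.3 CPM.

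Markers of other cells moved between the stage groups beside these genes. The 10 germ cell markers, all detected, summed to 1887 and 2605 CPM in group D, against 5618 to 12452 CPM over the other groups. The 7 endothelial markers summed to 16.3 to 25.0 CPM in group B, 24.3 to 37.2 in C, 29.8 to 43.6 in D, 14.9 to 18.4 in E and 11.3 to 17.9 CPM in A, so the groups with most Pdgfra also had the most endothelial transcript. The 7 Leydig markers summed to 20.5 to 22.7 CPM in group B, 27.2 to 36.9 in C, 35.4 to 50.2 in D, 25.9 to 27.8 in E and 14 to 25.6 CPM in A, with Insl3 and Lhcgr at 0. Mitochondrially encoded genes took 12.5% and 4.61% of the counts in group D, the extremes of the sorted libraries. The 5 macrophage markers summed to 367 to 384 CPM in group B, 217 to 264 in C, 147 to 160 in D, 281 to 340 in E and 342 to 400 CPM in A. The 5 blood markers, mostly Alas2, summed to 543 to 945 CPM in group B, 439 to 709 in C, 38.2 to 39.1 in D, 105 to 223 in E and 479 to 571 CPM in A. Germ cell, macrophage and blood sums were thus lowest in group D, as Actg2 was. Sertoli markers, 12 in all, summed to 8494 to 8522 CPM in group B, 8026 to 13063 in C and 12549 to 12796 in D. In E they summed to 9351 to 11392 CPM and in A to 8167 to 9452 CPM. Their mean was thus highest in D, where Actg2 was lowest, though the highest library was in C. The macrophage sum rests mainly on Aif1 and Mrc1, the only 2 of its genes tested by stage. The blood sum rests on Alas2, the only 1 tested, so neither sum stands for its cell type as a whole. The 6 pericyte and vascular smooth muscle markers summed to 15.2 to 37.2 CPM in group B, 29.9 to 36.3 in C, 15.3 to 27.7 in D, 11.6 to 13.8 in E and 18.1 to 23.7 CPM in A. The part of these in the values of Actg2 and Pdgfra was not tested.

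Of the related lists, the stage F test called 2 of 18 further contractile genes tested and 1 of 13 stroma and matrix genes, against 8.07% of all genes, so these counts are near the background. Tpm1, tropomyosin, rose in C by 1.11 (SE 0.24, adjusted p = 0.0298), lost in 6 of 10 fits with adjusted p up to 0.411, and it stood at 0.72 without group C replicate 1. Its F test passed and was lost in 7 of 10 fits, with adjusted p up to 0.195.

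In group D the LIM protein gene Csrp1 and the matrix glycoprotein gene Sparc fell together with Actg2. They were 1 of 18 further contractile genes and 1 of 13 stroma and matrix genes tested, where 4.28% of all genes were called lower. Csrp1 averaged 31.1 CPM ± 8.16 in D and had a log2 change of -1.04 (SE 0.25, adjusted p = 0.0207). The F test over groups did not call Csrp1 (adjusted p = 0.0882). Sparc had 666 and 702 CPM in D, against 1134 to 1870 CPM over the other groups, with a log2 change of -1.07 (SE 0.20, adjusted p = 0.0054). Neither passed without group D replicate 1 or without group D replicate 2, and Csrp1 also failed without group E replicate 1, with adjusted p up to 0.238 for Csrp1 and 0.072 for Sparc. Sparc was the 1 gene of 13 in the stroma list that the F test called (adjusted p = 0.0135), and that too was lost without either library of group D. None of the 6 PDGF and hedgehog genes tested was called in any of these stage comparisons.

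Over the 9 days of one cycle in NANOS2 KO testes, none of the 10 genes was called by day (edgeR quasi-likelihood F test with the filter on low counts). The background was 0.582% of 13065 genes, or 76. For a straight line over days the background was 0.857% (0.49% higher and 0.367% lower), and again 0 of the 10 were called. For a cycle of 8.6 days edgeR with its filter called 0 genes of any kind. There, 1262 genes had a raw p under 0.05, and DESeq2 called 60. The coefficient of variation over the 18 libraries was 12.2% for Acta2 and 13.0% for Myh11, 14.6% for Pdgfra, 19.7% for Dcn, 34.3% for Col1a1 and 57.7% for Col1a2. Actg2 had 30.4% and Cnn1 24.4%. The order turned on day 49 replicate 1, the highest library for both collagen genes: without it the coefficient was 24.8% for Col1a2 and 26.4% for Col1a1, against 30.9% for Actg2.

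Col1a2 had 704 and 576 CPM on day 42, 430 and 370 on day 43, 382 and 381 on day 44, 317 and 447 on day 45, 364 and 439 on day 46, 374 and 480 on day 47, 316 and 320 on day 48, 1479 and 383 on day 49 and 349 and 329 CPM on day 50. Day 49 replicate 1 is far above every other library, while its partner is not. The adjusted p of the day F test was 0.0864, and it was 2.91e-07 without day 49 replicate 2 and also passed without day 49 replicate 1, while it reached 0.222 without day 42 replicate 1. As a line, Col1a2 changed by 0.017 log2 per day (SE 0.044). Without day 49 replicate 1 it fell by 0.077 log2 per day (adjusted p = 0.0433).

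Day 49 replicate 1 also had the highest levels of Col1a1 (145 CPM), Myh11 (390 CPM) and Des (38.8 CPM), and the lowest of Dcn (216 CPM) and Acta2 (235 CPM). Day 49 replicate 2 had 59.2 CPM of Col1a1, 296 of Myh11, 21.7 of Des, 372 of Dcn and 282 CPM of Acta2. The library with most collagen thus had least decorin. It is the library with the lowest mitochondrial share given above, and the part of that in its levels was not tested. With day 49 replicate 2 left out, so that this library alone stands for the day, the F test called Col1a1 (adjusted p = 0.00356), Dcn (0.0156) and Pdgfra (0.0325). Without day 42 replicate 1 the same 3 genes had adjusted p = 0.707, 0.664 and 0.655. With no filter on low counts the F test called Col1a1 (adjusted p = 1.19e-06), Col1a2 (1.65e-40) and Dcn (0.000225). With the filter, the raw p of Col1a2 in the same test was 0.000713, and far fewer genes were called by day. These 3 calls are therefore given only to show the dependence on the filter.

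Day 42 had the highest mean of Dcn and of Pdgfra, though for Dcn only its replicate 1 stood above the other days. Dcn had 665 and 462 CPM on day 42, 411 and 480 on day 43, 429 and 494 on day 44, 481 and 380 on day 45, 505 and 448 on day 46, 480 and 450 on day 47, 484 and 384 on day 48, 216 and 372 on day 49 and 416 and 411 CPM on day 50. Pdgfra had 382 and 328 CPM on day 42, 262 and 311 on day 43, 301 and 256 on day 44, 279 and 285 on day 45, 345 and 341 on day 46, 254 and 277 on day 47, 260 and 247 on day 48, 304 and 237 on day 49 and 234 and 251 CPM on day 50. Pdgfra had its highest levels on days 42 and 46, and Dcn reached its highest in 1 of the day 42 libraries. Per day the log2 change was -0.055 for Dcn (SE 0.020, adjusted p = 0.179) and -0.044 for Pdgfra (SE 0.015, adjusted p = 0.163), neither called.

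No contractile gene was called over the days either. The slope per day ran from -0.023 (Acta2, SE 0.014) to 0.013 (Tagln, SE 0.021) on the log2 scale over the 6 genes, with adjusted p from 0.476 to 0.968. Tagln lay at 25.3 to 42.5 CPM, Cnn1 at 7.44 to 23.3 CPM and Des at 20 to 38.8 CPM over the 18 libraries. Actg2 had 10 to 41 counts per library.

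**Figure D4:**
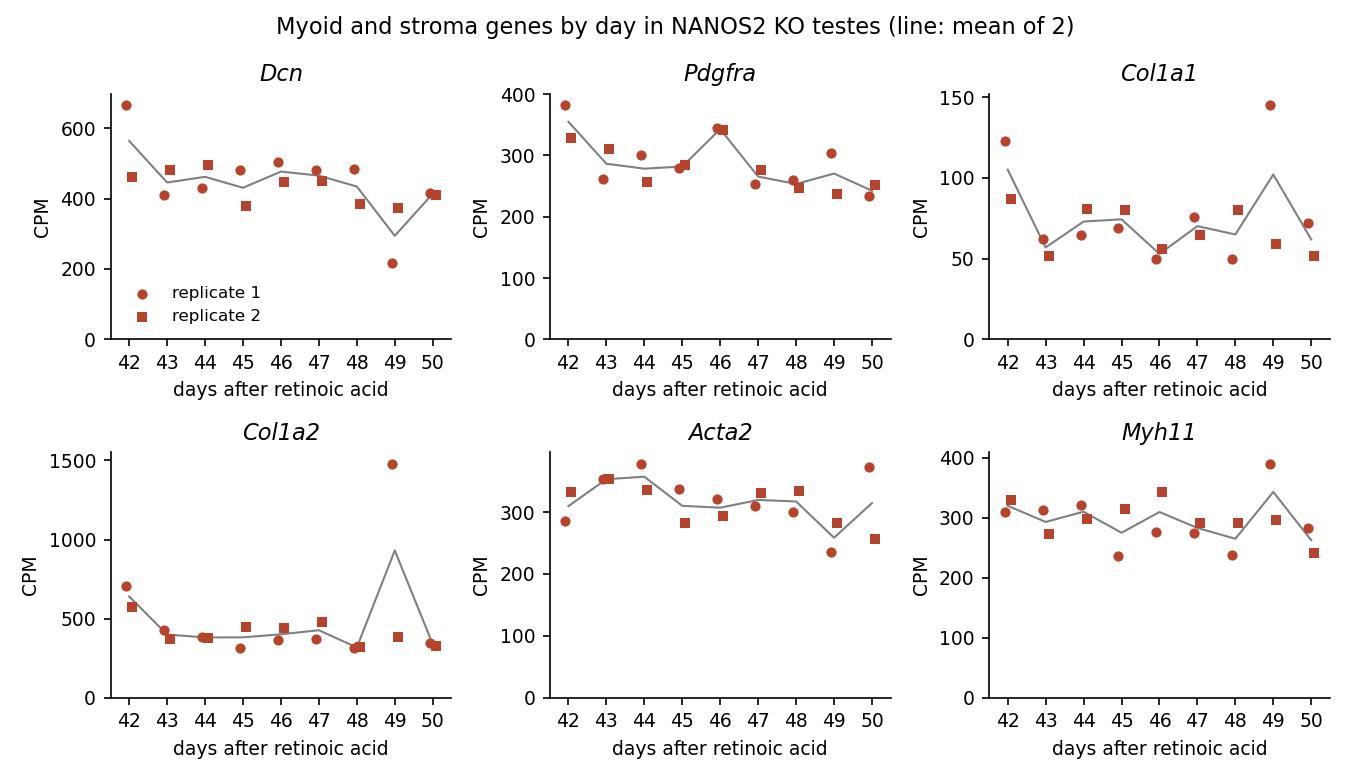
CPM of 6 of the genes in NANOS2 KO testes by day after retinoic acid, with circles for replicate 1, squares for replicate 2 and a line through the means of 2. Day 49 replicate 1 stands at 1479 CPM for Col1a2 and at 216 CPM for Dcn. Day 42 is high for Pdgfra and Col1a2, and for Dcn in replicate 1 only.

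Among the 3 lists of related genes, the calls over the days came from the stroma genes. Of 19 stroma and matrix genes tested, 3 fell along the line and 0 rose, while 0 of 20 further contractile genes and 0 of 11 PDGF and hedgehog genes were called. Over all genes the line called 0.367% lower and 0.49% higher, so 0 calls in lists of this size are near the background. Igf1, insulin-like growth factor, had a mean of 51.1 CPM ± 0.148 for day 50, against 82.6 CPM ± 3.26 for day 42 (SD, 2 libraries each), and fell by 0.075 log2 per day (adjusted p = 0.0314). Fbln5 changed by -0.064 log2 per day (adjusted p = 0.0434) and the collagen VI chain Col6a2 by -0.082 (adjusted p = 0.0473). Col6a2 was also the 1 stroma gene that the F test called (adjusted p = 0.0415), which was lost in 15 of 18 fits with a library left out (adjusted p up to 0.296). These calls lie close to the threshold: with a library left out, the line was lost in 6 of 18 fits for Igf1, 11 for Fbln5 and 15 for Col6a2, with adjusted p up to 0.0923, 0.115 and 0.174.

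Markers of Leydig cells varied by day as well. The 7 markers, all detected, summed to 2062 and 2016 CPM on day 42, where Pdgfra and Col1a2 were high, as was Dcn in replicate 1. The markers summed to 5721 and 5427 CPM on day 48 and to 2151 and 2495 CPM on day 49. Over the 18 libraries the sum ran from 2016 to 5863 CPM. The day F test called 4 of the 7, against 0.582% of all genes. They were Cyp11a1 (adjusted p = 0.00352), Cyp17a1 and Hsd17b3 (0.0104 each) and Insl3 (0.0482). The line called Insl3 (0.19 log2 per day, adjusted p = 0.0314). Of the skeletal and heart muscle markers, the F test called Myh6 (adjusted p = 0.000118), and their sum was 95.7 and 102 CPM on day 48, against 13.3 to 68.9 CPM on the other days. These marker calls were not refitted with a library left out, and their part in the values of the stroma genes was not tested.

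The genes varied together only in part among the 18 NANOS2 KO libraries. Of the 45 pairs, 32 had a positive Pearson r, and 3 had an adjusted permutation p under 0.05 (100000 permutations, two-sided, adjusted over the 45 pairs) for both Pearson and Spearman coefficients of log2 CPM. Myh11 and Col1a2 had r = 0.79 (adjusted p = 0.00315) and rho = 0.80 (adjusted p = 0.0072). Their r was 0.62 without the 2 libraries farthest from the median of Myh11 and 0.66 without day 49 replicate 1. Myh11 and Des had r = 0.75 (adjusted permutation p = 0.00686) and rho = 0.67 (adjusted p = 0.0493), with r = 0.69 and 0.62 in the same reduced sets. Des and Col1a2 had r = 0.74 (adjusted permutation p = 0.00686) and rho = 0.67 (adjusted p = 0.0493), with r = 0.52 without the 2 libraries farthest for Des and 0.55 without day 49 replicate 1.

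The 2 chains of type I collagen had r = 0.80 (adjusted permutation p = 0.00686) but rho = 0.49 (adjusted p = 0.222), and r was 0.36 without the 2 libraries farthest from the median of Col1a1 and 0.64 without day 49 replicate 1. The relation thus depends on which libraries are left out. Acta2 and Myh11, the main actin and myosin of smooth muscle, had r = -0.21 (adjusted permutation p = 0.639) and rho = -0.12 (adjusted p = 0.832). Dcn and Col1a2 had r = -0.49 (adjusted permutation p = 0.309) and rho = -0.21 (adjusted p = 0.669), with r = 0.46 without day 49 replicate 1. These values were computed across libraries of 9 days, and each library's depth and cell mixture enter both genes of a pair.

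Among the 8531 genes whose log2 CPM averaged 4 or more in NANOS2 KO testes, those most like the mean profile of the 6 contractile genes over the 18 libraries were Mpdz (r = 0.79), Man1c1 (0.75), Armc8 (0.74), Bag3 (0.70), Fkbp10 (0.68) and Ncoa5 (0.67). For the mean profile of the 4 stroma genes they were Ltbp4 (r = 0.86), Dpep1 (0.85), Col6a2 (0.84), Serpinh1 (0.83), Adcy6 (0.82) and Lamb1 (0.82). Ltbp4 binds latent TGF-beta in the matrix and Serpinh1 is a chaperone of collagen. A search over 8531 genes yields high values of r even among unrelated genes, and no p is given. Without day 49 replicate 1, r for these 12 genes was between 0.69 and 0.87. The other 17 libraries also served to pick the genes, so this range is no separate check.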

How the data were processed

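The genes and the lists were chosen with earlier results of these data known. Per the labels' protocols, polyadenylated RNA was made into libraries with an Ion Total RNA-seq kit and read on an Ion Proton. Bowtie, TopHat and Cufflinks with mm10 are named in the submitters' processing notes; their versions, the counting step and the annotation used do not appear in the labels used here. The authors deposited raw counts per gene, 43280 gene rows in each of 2 tables. Although 2 further deposited tables carry FPKM in their names, their values are CPM with no gene length in them, matching the counts over the library total to 0.0005, and CPM here were computed from the counts. Spreadsheet conversion had turned 27 symbols into dates. In the NANOS2 KO counts 2 columns share a header of day 42, so the replicate number came from the column of identical CPM. Of the symbols, 91.1% are in GENCODE M21 (GRCm38), which gave positions and exon lengths.

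Low counts were removed with filterByExpr, and libraries were scaled by TMM. The test was edgeR's quasi-likelihood F test (version 4.0.16, with R 4.3.3); calls have a Benjamini-Hochberg adjusted p under 0.05 over all genes of the fit. Sorted libraries were compared by stage group, each group against the mean of the others, NANOS2 KO libraries by day, as a line and as a cycle of 8.6 days, and both sets in a joint fit of 14 groups (TMM factors 1.07 to 1.14 in NANOS2 KO testes and 0.796 to 0.887 in sorted cells). CPM in the text carry no TMM factor, log2 fold changes do. The biological coefficient of variation was 0.192 in the joint fit, 0.268 in sorted libraries and 0.122 in NANOS2 KO libraries. As alternatives, fits used DESeq2 1.42.0, RLE scaling, scaling by 12 Sertoli markers, no filter, a block for the replicate number, and each library left out in turn with the genes of the full fit. All 10 genes are described; from each other list, up to 2 called genes with the smallest p in each direction are named. A gene that this rule names is not reported here. Correlations used log2 CPM with a prior count of 2. The floor of 3 counts covers counting error only, while each SE comes from the quasi-likelihood fit and includes the spread among libraries.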

Additional observations from a re-analysis of the deposited data

Results flagged for a closer look

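In 2 of the 10 genes, 1 of the 10 sorted libraries stood apart from the rest by more than the 95% critical value of Dixon's gap ratio for 10 samples. Chance gives such a gap in about 1 in 20 groups. Myh11 was highest in group C replicate 1 at 38.4 CPM (106 counts), and its gap to the next library was 0.642 of the range. Its partner, group C replicate 2, had 11.3 CPM. Cnn1 was highest in group C replicate 2 at 4.27 CPM (14 counts), with a gap ratio of 0.687, and group C replicate 1 had 1.09 CPM. The 2 genes thus point to different libraries of the same group.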

How the results depend on the processing

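Counts of called genes moved by more than 1.5 times under several settings. With no filter on low counts, 2764 genes were called by stage, 901 in group A, 307 in B, 988 in C, 1932 in D, 651 in E, 968 by day and 359 by cycle. DESeq2 called 1997 by stage, 527 in A, 108 in B, 649 in C, 285 in E, 217 by day, 212 along the line and 60 by cycle. With the replicate number as a block, the counts were 477 in A, 24 in B, 170 in E and 65 along the line. The labels do not say that a number pairs libraries, and not every pair of groups correlated above 0.1: deviations of same-numbered libraries correlated at -0.18 to 0.58 between sorted groups (over 0.1 in 6 of 10 pairs of groups) and at -0.38 to 0.21 between days (2 of 36 pairs). The block added the call of Actg2 in group A (0.92, adjusted p = 0.031) and lost both calls of Col6a2 (adjusted p = 0.0528 and 0.0579), with no other change among the named genes. With each library left out in turn, counts ran from 386 to 1518 by stage, 85 to 297 in A, 0 to 72 in B, 163 to 580 in C, 289 to 1739 in D, 0 to 296 in E, 18 to 879 by day, 4 to 215 along the line, 0 to 9 by cycle and 13226 to 13431 between the sets. The cause of these shifts was not tested. With no filter, calls rose in each comparison listed for that setting, so a gene that passes only there is not counted as called.

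For the 10 genes, RLE scaling kept 57 of 57 values on their side of the threshold, DESeq2 56, the block 56 and no filter 49, where 8 uncalled values passed, among them Col1a2 by cycle (adjusted p = 2.19e-10). Of 990 values with a library left out, 958 kept direction and side, 14 lost the call, 6 gained one and 12 changed sign, none of the 12 called in the full fit. These were Myh11 in group C (-0.16, highest 1.52) and slopes near 0: Actg2 at -0.002, -0.003, -0.001, -0.011 and -0.021 (highest 0.029), Tagln at -0.005 (highest 0.026), Cnn1 at 0.005, 0.005 and 0.001 (lowest -0.014), Col1a1 at 0.014 (lowest -0.061) and Col1a2 at -0.077 (highest 0.049). All 28 fits between the sets kept the direction and call of each gene. Depth limits Dcn and Cnn1 in sorted cells, with 1 to 14 counts per library.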
